A study of Mus musculus with 4 samples.

Results

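The integrins considered here are 10 genes whose products anchor blood stem cells to the marrow and to vessel walls: the alpha subunit genes Itga4, Itga5, Itga6, Itga9, Itgal and Itgav and the beta subunit genes Itgb1, Itgb2, Itgb3 and Itgb7. They were chosen by name, with earlier results of these data known. All 10 were measured, out of 18194 genes in the table, and each was read at the probe set with the highest mean over the 4 arrays. Counting every probe set that the array annotation assigns to one of them alone, there were 31 of 34958. The values come from Affymetrix arrays of RNA from C57BL/6 (B6) mouse bone marrow cells at 8 weeks of age, sorted as lineage-negative, c-Kit-positive and Sca-1-positive, a gate that holds stem cells together with multipotent progenitors. One group of 2 arrays is labelled WT and the other group of 2 arrays Alox15-/-, for loss of the gene of arachidonate 15-lipoxygenase. No treatment is named, and the labels call the replicates biological without naming animals or pools, so p-values cover only the spread among these arrays, part of which may be technical.

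An integrin is a pair of membrane-spanning chains, an alpha and a beta subunit, that binds matrix proteins or cell-surface ligands outside the cell and the actin skeleton inside it. Its affinity is set from within, when Rap1 GTPases bring talin and kindlin to the beta tail. In haematopoietic stem and progenitor cells, the pair of alpha 4 and beta 1 (VLA-4) binds VCAM-1 and fibronectin and is used for retention in and homing to the marrow. Alpha 5 with beta 1 (VLA-5) binds fibronectin, alpha 6 with beta 1 binds laminin, alpha 9 with beta 1 binds tenascin and osteopontin, alpha L with beta 2 (LFA-1) binds ICAMs, alpha V with beta 3 binds vitronectin and osteopontin, and alpha 4 with beta 7 binds MAdCAM-1.

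None of the 10 integrin genes passed the threshold of 0.05 on the limma adjusted p, and their adjusted p ran from 0.630 to 0.992. Over all genes tested, 1 passed (0.0055%), so 0 among 10 is near that background. At an unadjusted limma p under 0.05 there was 1 member, Itgb2, beside 7.77% of all genes. Differences are given as the arrays labelled Alox15-/- minus WT on the log2 scale. The members split evenly, 5 positive and 5 negative, with a median of -0.05 beside 0.02 over all genes. Of all 18194 genes, 9784 were positive and 8410 negative. Without WT replicate 2 the members' median was 0.041. The median size of a difference, regardless of sign, was 0.14 for the members and 0.14 for all genes. In 6 of the 10 genes the groups did not overlap, 3 with the arrays labelled Alox15-/- above WT and 3 with them below, against 38.5% of all genes (21.4% above and 17.1% below). Of the 6, Itga9 had the smallest gap, between 7.88 in WT and 7.8725 in those labelled Alox15-/-. With 1 array left out, a lone array overlaps less often: the members' count was then 6 to 10, reaching 10 without WT replicate 2, against 65.4% to 73.1% of all genes. Over every integrin probe set, 15 of 31 did not overlap, against 38.4% of all named probe sets, and 2 had an unadjusted limma p under 0.05, against 7.7%. Tested singly, 0 of the 31 passed the adjusted threshold, against 0.00572% of all named probe sets.

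**Figure D1:**
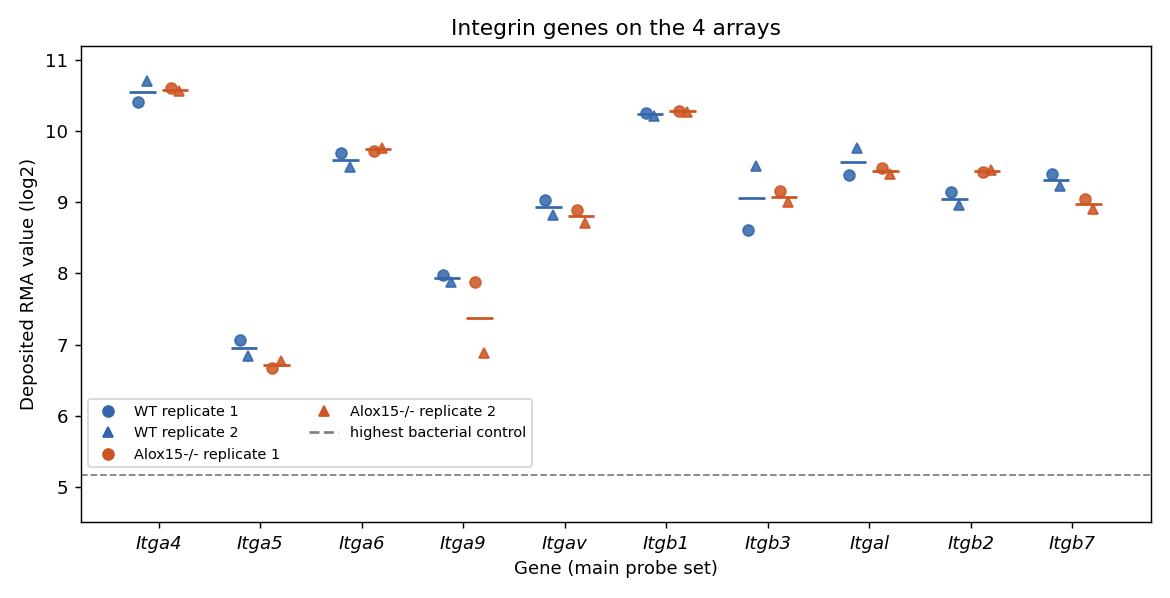
Deposited log2 values of the 10 integrin genes at their main probe sets (vertical axis) on each array, with a horizontal bar at the mean of each group of 2. The dashed line is the highest bacterial control on any array (5.17), and every integrin value lies above it; levels of different genes are not comparable on this scale.

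A few facts of the arrays touch these values. Alox15 itself read 4.63 and 4.35 in WT, whereas the arrays labelled Alox15-/- read 10.68 and 10.75, which goes against their label, and it was the 1 gene that passed (limma adjusted p = 0.00133). Directions are thus those of the labels. Where the deletion and this probe set lie within the gene is not given in the sources, so whether it tests the deletion is not known. Why the arrays labelled Alox15-/- read higher was not tested. As a measure of background, the brightest of 27 probe sets for bacterial transcripts read 4.95 to 5.17, and all 10 members lay above it on all 4 arrays. Kit, the receptor used in the sort, read 10.63 and 10.48 in WT and 10.34 and 10.23 in those labelled Alox15-/-. All 4 values lay above that control. The Kit groups did not overlap, with a difference of -0.27 (limma adjusted p = 0.695), and its cause was not tested. Both WT values of Alox15 lay below the control. Of 6 measured lineage markers that the sort removes, Cd3e, Cd5 and Ms4a1 were below that control on all 4 arrays, whereas Itgam, Cd4 and Cd8a were above it on all 4. On the log2 scale, the 3' probe set of Gapdh minus its 5' probe set was 2.38 in WT and 2.15 in those labelled Alox15-/-. The 3' end of Gapdh thus read higher in both groups, while for Actb the same difference was -0.21 in both. The part of the Gapdh values, or of their gap between the groups, in any difference below was not tested. The labels' protocols describe sense-strand labelling, but probe set names of this form are those of a design for antisense targets, and the sources do not settle which holds.

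Itga4 encodes the alpha 4 chain, which pairs with beta 1 or beta 7. It read 10.41 and 10.71 in WT and 10.60 and 10.56 in those labelled Alox15-/-. The groups overlapped, since both of the latter values fell between the WT arrays. The difference was 0.02 ± 0.16 (SE, n = 2 each; limma adjusted p = 0.981), with a 95% interval from 0.77-fold to 1.33-fold. Without WT replicate 1 it was -0.13 and without WT replicate 2 it was 0.17, so its sign is not settled. At the 4 other Itga4 probe sets the differences were 0.04, 0.29, 0.11 and -0.11.

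Itgb1 encodes beta 1, the common partner of alpha 4, 5, 6 and 9. Its arrays were the closest of any member, at 10.26 and 10.22 in WT and 10.29 and 10.28 in those labelled Alox15-/-. Both of the latter lay narrowly above both WT arrays. The difference was 0.04 ± 0.13 (SE, n = 2 each; limma adjusted p = 0.952), and its 95% interval, from 0.83-fold to 1.28-fold, was the narrowest of the 10. Within groups the SD was only 0.03 in WT and 0.01 in those labelled Alox15-/-. Rac2, a gene with a spread of 0 within each group, still has an SE of 0.12 in this fit. The Itgb1 SE thus mostly reflects variance that limma borrows from all genes. The second bright Itgb1 probe set, which read 9.83 to 10.03, gave -0.05 with overlapping groups. Of the 4 dimmer ones, 1 gave 0.17 and another -0.70; the latter read 6.43 and 5.50 in WT and 5.34 and 5.19 in those labelled Alox15-/-, so that WT replicate 1 stood apart. The other 2 lay below the highest bacterial control on at least 1 array and gave -0.42 and -0.03. The mean of all 6 probe sets turned the Itgb1 difference to -0.16.

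Itga5 encodes alpha 5, the fibronectin-binding chain of VLA-5. It read 7.07 and 6.84 in WT and 6.67 and 6.76 in those labelled Alox15-/-, which both lay below WT. The difference was -0.23 ± 0.15 (SE, n = 2 each; limma adjusted p = 0.743), with a 95% interval from -0.60 to 0.13. Its probe sets disagreed. One further probe set showed no overlap in the same direction, reading 6.28 and 6.42 in WT and 5.97 and 6.05 in those labelled Alox15-/- (-0.34), another gave -0.52 with overlapping groups, and the dimmest gave 0.32 with both arrays labelled Alox15-/- above WT.

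The promoters of these VLA-4 and VLA-5 chains are shown to set the common beta 1 chain beside its fibronectin-binding partners, alpha 4 and alpha 5. They are the 250 bases before each gene's start from RefSeq on GRCm38.p6: chr2:79255176-79255425 on the + strand for Itga4, chr15:103366792-103367041 on the - strand for Itga5 and chr8:128685404-128685653 on the + strand for Itgb1. Capitals mark matches, on either strand, to 3 of the motifs searched: GGGCGG (the GC box bound by Sp1), TGTGGT (the RUNX core) and GAGGAA (a PU.1-like core).
Itga4: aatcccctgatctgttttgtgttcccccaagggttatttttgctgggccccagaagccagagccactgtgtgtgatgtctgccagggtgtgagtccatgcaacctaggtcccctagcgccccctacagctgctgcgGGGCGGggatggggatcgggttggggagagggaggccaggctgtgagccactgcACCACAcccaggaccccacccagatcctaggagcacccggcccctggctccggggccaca
Itga5: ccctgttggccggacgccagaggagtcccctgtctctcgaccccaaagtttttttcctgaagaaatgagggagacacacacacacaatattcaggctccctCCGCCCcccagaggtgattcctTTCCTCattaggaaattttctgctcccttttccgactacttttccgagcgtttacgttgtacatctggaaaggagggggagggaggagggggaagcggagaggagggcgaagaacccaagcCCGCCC
Itgb1: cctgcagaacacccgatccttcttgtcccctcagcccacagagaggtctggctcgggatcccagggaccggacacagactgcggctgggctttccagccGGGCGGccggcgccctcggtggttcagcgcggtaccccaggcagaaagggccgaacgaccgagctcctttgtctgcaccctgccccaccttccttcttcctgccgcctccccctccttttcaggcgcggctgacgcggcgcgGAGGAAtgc
Each of the 3 windows holds GGGCGG, Itga5 at 2 places; 32.7% of all 32851 promoter windows of this length, several per gene in some cases, hold it. Itga4 alone of the 3 holds TGTGGT (14% of all windows), while Itga5 and Itgb1 each hold 1 GAGGAA (23.3% of all windows). The ETS core CGGAAG (13.6% of all windows) and the GATA core AGATAA (9.99%) were not found in these 3 windows. These matches describe the letters and were not compared with expression. RefSeq promoters were matched for 6 members, these and Itga9, Itgav and Itgb7. Of the 6, only the 3 shown hold GGGCGG. Itgav holds CGGAAG and GAGGAA, while Itga9 and Itgb7 hold none of the motifs searched.

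Itga6 encodes alpha 6, the laminin-binding chain also known as CD49f. At the main probe set it read 9.69 and 9.50 in WT and 9.73 and 9.77 in those labelled Alox15-/-, a difference of 0.15 ± 0.14 (SE, n = 2 each; limma adjusted p = 0.816). At its other probe set, also above the bacterial control on all arrays, it read 8.36 and 8.23 in WT and 8.74 and 8.98 in those labelled Alox15-/-. The groups did not overlap at either probe set. The difference at the second probe set was 0.57 ± 0.16 (SE, n = 2 each), and had the smallest p of all 31 integrin probe sets (limma adjusted p = 0.591 over all named probe sets). It did not pass. The mean of both probe sets gave 0.36.

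Itga9 encodes alpha 9, a receptor chain for tenascin and osteopontin. It had the largest difference of the 10 at -0.56 ± 0.33 (SE, n = 2 each; limma adjusted p = 0.733), and that value came from 1 array. WT read 7.98 and 7.88, Alox15-/- replicate 1 read 7.87 and Alox15-/- replicate 2 read 6.88. The groups thus did not overlap, but only narrowly, with 7.88 in WT replicate 2 and 7.8725 in Alox15-/- replicate 1. Without Alox15-/- replicate 2 the difference was -0.06, and without Alox15-/- replicate 1 it was -1.05. The 2 other probe sets gave -0.11 and -0.76 with overlapping groups. At the latter WT replicate 2 stood high, at 7.83 against 6.74 in WT replicate 1 and 6.24 and 6.82 in those labelled Alox15-/-, so all 3 probe sets were negative but different arrays set the size.

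Itgav encodes alpha V, the partner of beta 3 and of several other beta chains. It read 9.04 and 8.82 in WT and 8.90 and 8.71 in those labelled Alox15-/-, with overlapping groups and a difference of -0.12 ± 0.15 (SE, n = 2 each; limma adjusted p = 0.877). Its 4 other probe sets ran from -0.15 to 0.07, and 1 of them lay below the bacterial control on all arrays. Itgb3, the gene of beta 3 (CD61), had the widest WT spread of the members. It read 8.61 and 9.51 in WT and 9.15 and 9.01 in those labelled Alox15-/-, which both fell between the WT arrays. The difference was 0.02 ± 0.30 (SE, n = 2 each; limma adjusted p = 0.992), and its 95% interval ran from 0.60-fold to 1.72-fold. Without WT replicate 1 it was -0.43 and without WT replicate 2 it was 0.47. The second Itgb3 probe set gave 0.08.

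Beta 3 also pairs with alpha IIb in platelets and megakaryocytes, so their markers stand beside it. Of 8 measured megakaryocyte and platelet markers, 4 were higher in WT replicate 2, as Itgb3 was, and 4 in WT replicate 1, among them Treml1 at 5.83 and 5.73. Pf4, a platelet chemokine, read 8.04 in WT replicate 1 and 9.04 in WT replicate 2, and Ppbp, another, read 4.99 and 6.40. In the arrays labelled Alox15-/- Pf4 read 7.94 and 8.21 and Ppbp 4.38 and 3.70. Ppbp lay above the bacterial control only in WT replicate 2. Itga2b, the gene of alpha IIb, was also higher in WT replicate 2, but only narrowly. It read 8.25 and 8.27 in WT and 8.49 and 8.53 in those labelled Alox15-/-. Gp5, named outside the rule, was likewise only narrowly higher there, at 3.87 and 3.89 in WT, both below the bacterial control. Between the groups, 4 of the 8 had positive and 4 negative differences, 2 were below the bacterial control on all arrays, and their summed level (log2 of the sum of linear values) was 9.96 and 10.30 in WT and 9.96 and 10.03 in those labelled Alox15-/-. Their part in the Itgb3 values was not tested. In bulk RNA such as this, fewer cells of a type and less RNA per cell cannot be told apart.

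**Figure D2:**
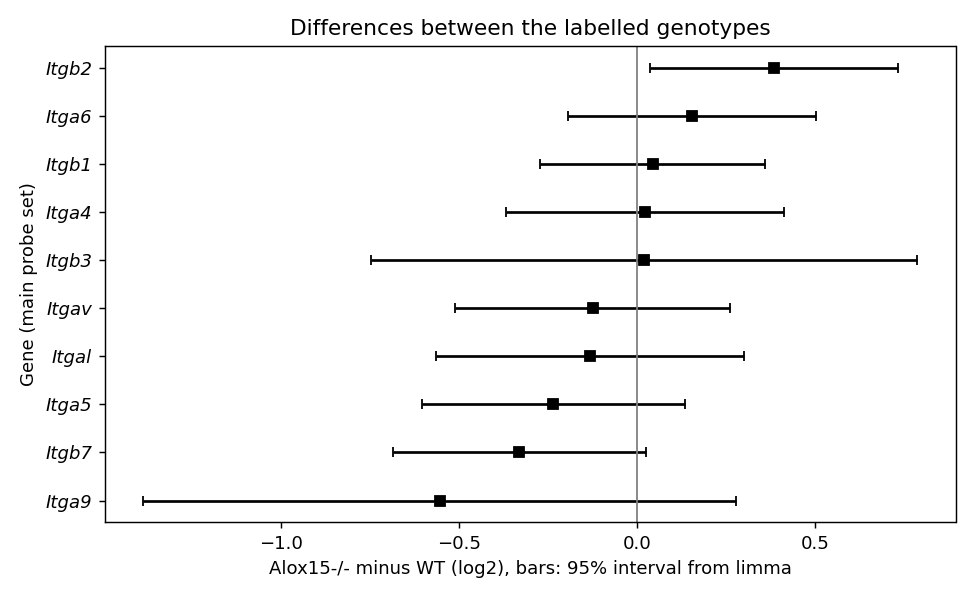
Differences at the main probe sets of the 10 integrin genes, arrays labelled Alox15-/- minus WT (horizontal axis, log2), with 95% intervals from limma, ordered from Itga9 at -0.56 to Itgb2 at 0.39. The Itgb2 interval alone excludes 0, before adjustment over 18194 genes.

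Itgb2 encodes beta 2 (CD18), the chain common to the leukocyte integrins. Its single probe set read 9.15 and 8.96 in WT and 9.42 and 9.46 in those labelled Alox15-/-, which both lay above WT. The difference was 0.39 ± 0.14 (SE, n = 2 each), 1.31-fold with a 95% interval from 1.03-fold to 1.66-fold. It had the smallest p among the members' main probe sets, but it did not pass (limma adjusted p = 0.630), and 1022 genes of the table had a smaller p. Leaving out any 1 array kept it between 0.29 and 0.48.

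The alpha chains that pair with beta 2 did not show one direction. Itgal, the gene of alpha L (CD11a), read 9.38 and 9.76 in WT and 9.48 and 9.40 in those labelled Alox15-/-. The groups overlapped, the difference was -0.13 ± 0.17 (SE, n = 2 each; limma adjusted p = 0.881), and it was 0.06 without WT replicate 2; its second probe set gave -0.15. Itgam, the gene of alpha M (CD11b), a lineage marker of the sort, read 6.22 and 6.08 in WT and 5.50 and 5.78 in those labelled Alox15-/-, a difference of -0.51 (limma adjusted p = 0.610). Itgax, the gene of alpha X (CD11c), read 5.51 and 6.36 in WT and 6.74 and 6.09 in those labelled Alox15-/-, with overlap and a difference of 0.48 (limma adjusted p = 0.773). Itgax is named outside the naming rule, after its values were seen, to complete the measured beta 2 partners.

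Mature leukocytes carry beta 2, so their markers stand beside it. The lineage gate is meant to remove these cells. Of 6 measured markers of that gate, 3 had positive and 3 negative differences, with Itgam among the negative. All 9 measured mature neutrophil markers had positive differences, with a median of 0.83 and 0 past the threshold, and 2 of them lay below the bacterial control on all arrays. Without WT replicate 1 the median was 0.47 with 7 of 9 positive, and without WT replicate 2 it was 1.44. Their summed level was 9.35 and 10.47 in WT and 11.42 and 11.03 in those labelled Alox15-/-. S100a9, a calcium-binding protein of neutrophils, read 8.16 and 9.28 in WT and 10.38 and 9.98 in those labelled Alox15-/-. Of 7 monocyte and macrophage markers, 5 had positive differences. F13a1, a coagulation factor gene of monocytes, had 1.76 and the chemokine receptor gene Ccr2 had 1.00 (limma adjusted p = 0.487 for each), with no overlap between the groups, and the WT values of Ccr2 lay below the bacterial control. Cd68 had -0.27. The bright lysozyme gene Lyz2, at 11.67 to 11.91, makes up most of the list's summed level, which was 11.98 and 12.04 in WT and 12.23 and 12.08 in those labelled Alox15-/-. The part of these markers in the Itgb2 difference was not tested.

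Itgb7 encodes beta 7, the alternative partner of alpha 4. Its single probe set read 9.40 and 9.23 in WT and 9.05 and 8.91 in those labelled Alox15-/-, which both lay below WT. The difference was -0.33 ± 0.14 (SE, n = 2 each), 0.80-fold with a 95% interval from 0.62-fold to 1.02-fold, and did not pass (limma adjusted p = 0.664). Leaving out any 1 array kept it between -0.42 and -0.25. The chains that can form VLA-4 or the alpha 4 beta 7 pair thus gave 0.02 for Itga4, 0.04 for Itgb1 and -0.33 for Itgb7; the differences between these values were not tested. Beta 7 is also carried by mast cell progenitors and lymphocytes. Of 7 mast cell and basophil markers, 6 had positive differences and 0 passed. One of them, Fcer1a, lay below the bacterial control on all arrays. The median of the 7 markers was 0.65. It was 0.31 leaving out WT replicate 2 and 0.28 leaving out Alox15-/- replicate 2, with 5 of 7 positive in each case. The summed level of the 7 markers was 9.20 and 8.54 in WT and 9.31 and 9.51 in those labelled Alox15-/-. The T and NK cell markers summed to 10.41 and 10.41 in WT and 10.47 and 10.35 in those labelled Alox15-/-, with 5 of 6 positive, 3 of 6 below the bacterial control on all arrays and Cd3e among those. The part of these markers in the Itgb7 difference was not tested.

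**Figure D3:**
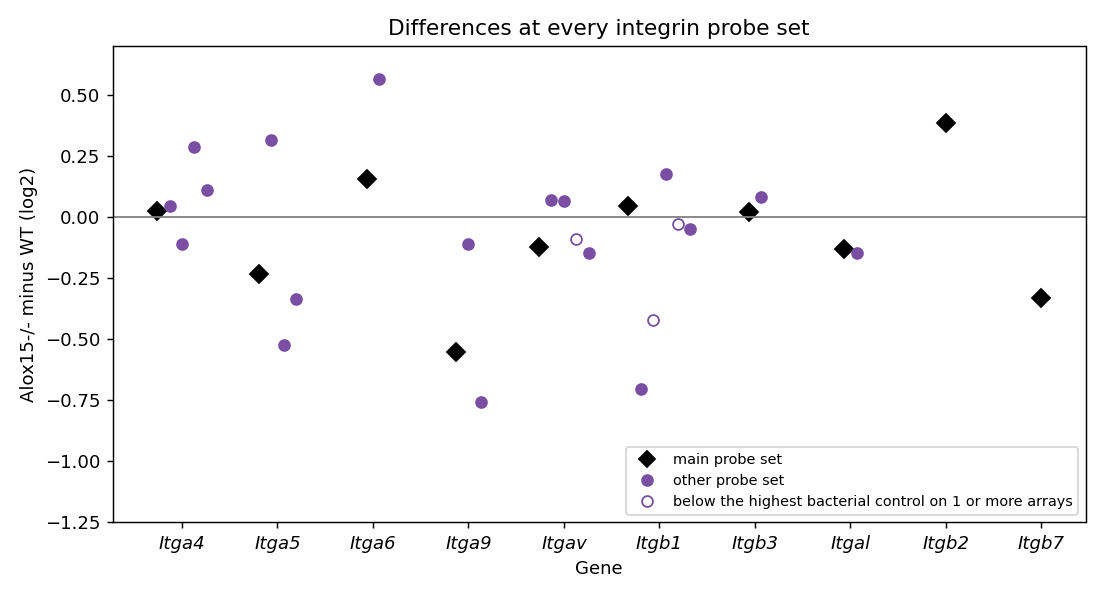
Differences (vertical axis, log2, arrays labelled Alox15-/- minus WT) at all 31 integrin probe sets, with diamonds for the main probe set of each gene and open circles for probe sets below the highest bacterial control on 1 or more arrays. Itga4, Itga5, Itgav and Itgb1 have probe sets on both sides of 0, whereas the 3 of Itga9 are all negative and the 2 of Itga6 both positive.

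**Figure D4:**
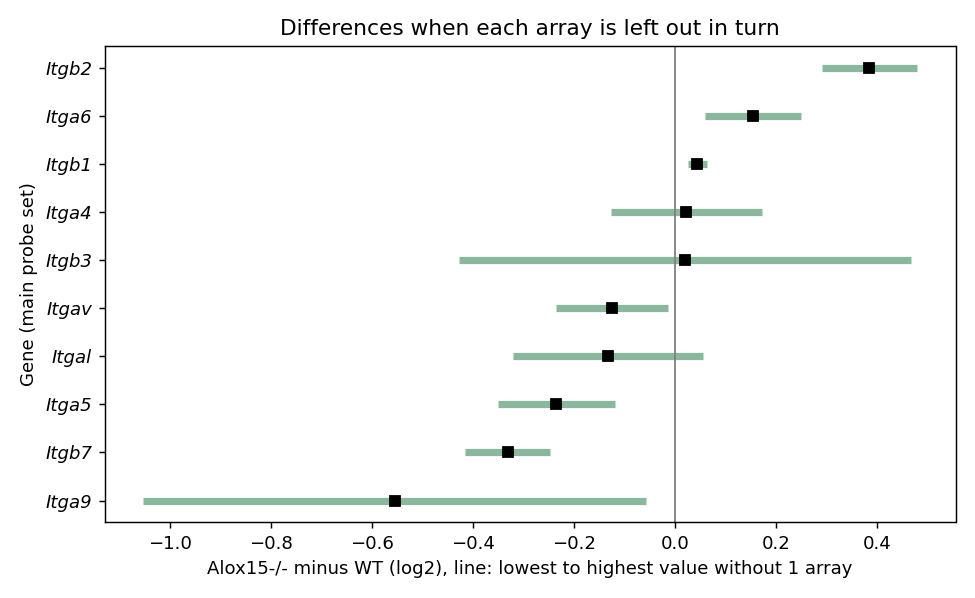
The same differences at the main probe sets (squares, log2) with a line from the lowest to the highest value when each array is left out in turn. The lines of Itga4, Itgb3 and Itgal cross 0, and that of Itga9 runs from -1.05 to -0.06.

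Some members shared an array order. Itga4, Itgal and Itgb3 were each lowest in WT replicate 1 and highest in WT replicate 2. The other members read higher in WT replicate 1 than in WT replicate 2. Itga9 and Itgb3 varied most, with an SD over the 4 arrays of 0.52 and 0.37. Among genes outside the members, those with centred values closest to Itga9 over the 4 arrays were Il17re, Wtip and Gabre. Their Euclidean distances were 0.09, 0.10 and 0.13, and all 3 were lowest in Alox15-/- replicate 2. Closest to Itgb3 were Bst1, Cltb and Ccdc157, at 0.03, 0.03 and 0.05, lowest in WT replicate 1 and highest in WT replicate 2. With 4 arrays, such likeness describes these arrays alone.

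Of 14 other measured integrin subunit genes, 7 had positive and 7 negative differences, with a median of 0.01. Of these, 0 passed and 2 had an unadjusted limma p under 0.05. Groups did not overlap for 4 of them (28.6%, beside 38.5% of all genes). Itga1, a collagen receptor chain, had 0.57 but lay below the bacterial control on all 4 arrays, as did Itgb6, at -0.45. The other named subunits are Itgam and Itga2b, described above, the latter with 0.25.

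Among 39 measured genes that activate integrins or link them to the actin skeleton, 18 had positive and 21 negative differences, 0 passed, 2 had an unadjusted limma p under 0.05 and the median was -0.01. Groups did not overlap for 14 of them (35.9%, beside 38.5% of all genes). Rasgrp2, the exchange factor that switches on Rap1, read 8.78 and 8.96 in WT and 9.34 and 9.31 in those labelled Alox15-/-, a difference of 0.45 ± 0.14 (SE, n = 2 each; limma adjusted p = 0.594). The mean over all Rasgrp2 probe sets gave 0.25. On the negative side Vasp, an actin regulator of adhesion sites, had -0.33, Rac2, a small GTPase of blood cells, -0.31 and the kinase gene Src -0.30. Rac2 had identical values within each group, 9.4425 in both WT arrays and 9.135 in both labelled Alox15-/-, and passed the threshold without variance moderation, where its spread is 0. The direct activators of the beta tail, named outside the rule after their values were seen, gave 0.23 for talin (Tln1) and -0.09 for kindlin-3 (Fermt3), both with overlapping groups.

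Of 27 measured integrin ligands and surface partners, 17 had positive and 10 negative differences, with a median of 0.08. Of these, 0 passed and 2 had an unadjusted limma p under 0.05. Groups did not overlap for 13 of them (48.1%, beside 38.5% of all genes). Cd9, a tetraspanin that associates with integrins, read 6.92 and 6.68 in WT and 7.39 and 7.19 in those labelled Alox15-/-, a difference of 0.49 ± 0.16 (SE, n = 2 each; limma adjusted p = 0.618). Icam2, a ligand of LFA-1, read 7.95 and 8.15 in WT and 8.56 and 8.44 in those labelled Alox15-/-, a difference of 0.45 ± 0.14 (SE, n = 2 each; limma adjusted p = 0.618). Vtn, the gene of vitronectin, had 0.26, with both WT values and Alox15-/- replicate 1 below the bacterial control. Alox15-/- replicate 2 was narrowly above it, at 5.09 against 5.08. Cd81, another tetraspanin, had -0.27. Vcam1, the ligand of VLA-4, named outside the rule, had 0.07 with overlapping groups.

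**Figure D5:**
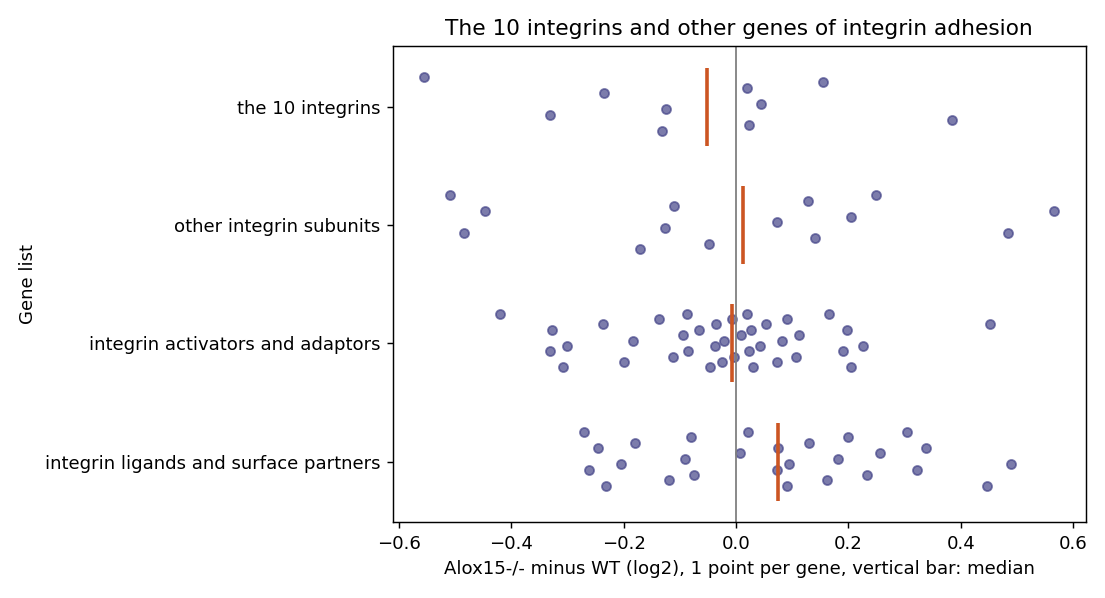
Differences (horizontal axis, log2, arrays labelled Alox15-/- minus WT) of the 10 integrins and of 14 other integrin subunits, 39 activators and adaptors and 27 ligands and partners, 1 point per gene, with the median of each list as a vertical bar; height within a row only spreads the points. The medians lie between -0.05 and 0.08, and no gene shown passed the threshold.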

How the data were processed

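The deposited table holds log2 values of 45101 probe sets, made by the authors with Affymetrix Expression Console 1.1 and RMA, per the submitters' processing notes; RMA subtracts background, quantile-normalizes arrays and summarises probe sets. Arrays take 1195 to 1228 distinct values, so small differences can fall to 0, and their number limits the precision. Probe sets with 1 gene symbol (34958) were named from the platform annotation, and the 10 members' identifiers all matched RefSeq. Groups came from titles. Alox15-/- minus WT was fitted over 18194 genes, dim ones included, with lmFit and eBayes of limma 3.58.1 (R 4.3.3), without a block and two-sided, and p-values were adjusted by Benjamini-Hochberg over all of them. Probe sets were also fitted singly. The code was tested on simulated data. Members and lists were chosen with earlier results of these data known. Named genes were the members, Alox15, Kit, up to 4 genes per list with the smallest p, and the 3 genes closest to each of the 2 most variable members; exceptions are stated. Ly6a, Spp1 and Ptk2 were among list genes not analysed here. Of further markers, B cell (4 of 5 positive), erythroblast (1 of 4) and endothelial and stromal genes (5 of 8) had 0 past the threshold. Alternatives covered normalization, dim genes, moderation, weights, probe sets, a replicate block and leaving out each array. Figures used matplotlib 3.10.9.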

Additional observations from a re-analysis of the deposited data

How the results depend on the processing

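None of the 10 integrin genes passed the threshold in any of 15 other settings or with every probe set tested. In every setting that measured them, Itgb2 and Itga6 stayed positive and Itga5, Itga9, Itgav and Itgb7 negative. Without 1 array Itga6 ran from 0.06 to 0.25, Itga5 from -0.35 to -0.12 and Itgav from -0.24 to -0.014. Leaving out arrays for the marker lists was chosen after seeing the data. Over all genes, 22 passed with a mean-dependent prior variance and 2 with every probe set tested (Alox15 and Fam107b), while 0 passed without any 1 array, in fits that assume the lone array varies like the other group and that have few degrees of freedom. Without variance moderation 1 pathway gene passed, Rac2, whose spread is 0. The members' median was 0.02 without the lowest 50 percent of genes, which leaves out Itga5, and ran from -0.12 to 0.041 without 1 array. The number of members whose groups did not overlap ran from 6 to 10 without 1 array, since a lone array overlaps less often. With the mean of all probe sets Itgb1 was -0.16, Bst1 0.036 and Cltb -0.25, and with probe sets lacking _s, _x, _a or _f Col1a2 was -0.032 and Itgb6 0.035. Without 1 array the sign also changed for Itga4 (-0.13 to 0.17), Itgal (-0.32 to 0.056), Itgb3 (-0.43 to 0.47), Bst1 (-0.44 to 0.44), Ccdc157 (-0.45 to 0.42), Cltb (-0.41 to 0.48), Alas2 (-0.28 to 0.26), Emcn (-0.42 to 0.063), Hba-a1 (-0.10 to 0.40), Ms4a1 (-0.089 to 0.38), Pax5 (-0.33 to 0.078), Pf4 (-0.96 to 0.033) and Slc4a1 (-0.18 to 0.021). Where not stated, the cause was not tested. Replicate numbers are shared by the groups, but same-numbered arrays did not deviate together (r = -0.02 across genes), so the number is not taken as a pairing; with it as a block 1 gene and 0 members passed, and Itgb2 had limma adjusted p = 0.703. With 2 arrays per group, the 95% intervals of 9 of the 10 members include 0.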
